A study of Homo sapiens with 20 samples.

Results

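The genes described are 10 sensors and adaptors of innate nucleic acid recognition: the RNA helicases DDX58 (which encodes RIG-I), IFIH1 (MDA5) and DHX58 (LGP2), the endosomal receptor TLR3, the DNA and Z-form nucleic acid sensors IFI16 and ZBP1, the adaptors MAVS and TMEM173 (STING), the kinase TBK1 and the transcription factor IRF3. They were chosen by symbol, and all 10 had a row among the 36076 genes of the expression table. The question was how each line's untreated sensor level stood beside its interferon response to decitabine (DAC), a nucleoside drug that traps and removes DNA methyltransferases, and how the sensors themselves differed after the drug. The established human lung cancer lines A549, CL1-0, CL1-5, PC9, H1299 and H1792 were profiled by mRNA-seq, and A549, CL1-5, PC9 and H1299 also by Omni-ATAC-seq, which maps accessible DNA. Mock cells received phosphate-buffered saline and DAC cells 100 nM DAC for 72 hours, and after 3 further drug-free days both were collected. With 1 library per line and treatment, each line is 1 replicate, and the test across lines used the 5 lines of the study's own mRNA-seq comparison, which leaves out H1792.

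RIG-I and MDA5 bind double-stranded or 5′-phosphorylated RNA in the cytoplasm and signal through MAVS on mitochondria, while LGP2 binds the same RNA without signalling domains of its own. TLR3 detects double-stranded RNA in endosomes, and STING relays cytosolic DNA recognition from the endoplasmic reticulum, with IFI16 as one of the DNA binders upstream. These routes converge on TBK1, which phosphorylates IRF3 and so switches on interferon genes, and the helicases, IFI16 and ZBP1 are themselves induced by interferon. RNA from demethylated repeats is a known ligand of the helicases after DNA methyltransferase inhibition.

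Between 22234485 and 25303899 reads lay on genes in the 10 libraries outside H1299, and H1299 had 59735913 in Mock and 52634234 after DAC. In the H1299 libraries 81.9% to 85.5% of genes with 1 to 20 reads had an even number, against 39.2% to 41.5% in the others, so H1299 reads were not independent counts and were halved for every counting interval. The 5 epithelial markers (EPCAM, KRT8, KRT18, KRT19, CDH1) summed to between 111 and 3015 FPKM in the Mock libraries of 5 lines but to 0.986 FPKM in CL1-0, where this marker set was close to absent. In CL1-5 and H1299 the sum was mainly KRT8 and KRT18. EPCAM and CDH1 were at 0.132 and 0.478 FPKM in Mock CL1-5 and 0.0555 and 0.0113 FPKM in Mock H1299. Both were below the 0.151 and 0.562 FPKM of CL1-0. FPKM are fragments scaled to gene length and library size. The sum of 6 leukocyte markers was 0.133 to 4.82 FPKM in Mock and 0.227 to 8.52 FPKM after DAC, A549 being highest in both, and CD3E was at 3 reads or fewer in every library. The sums of 3 fibroblast or endothelial markers were 0.203 to 70.3 FPKM in Mock and 1.59 to 84.5 FPKM after DAC. These lists were higher after DAC in median, and their part in the values of the sensors was not tested. In such bulk samples fewer cells of a type and less RNA per cell cannot be told apart.

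Promoter sequences of 6 of the 10 genes matched the RefSeq table (assembly GRCh38.p14), in 7 windows that run from 250 bases before a start site to 50 bases after it. Each window was found exactly once in GRCh37, the build of the deposited files. Of these 4 are shown, the first pair because they hold the core of the interferon-stimulated response element and the second pair because they differ in CpG dinucleotides, the sites of DNA methylation. The core was searched as GAAANNGAAA on both strands, overlaps allowed. In the windows of IFIH1 (chr2:163175145-163175444, minus strand) and TLR3 (chr4:186990060-186990359, plus strand), written along the gene, capitals mark its matches.
IFIH1: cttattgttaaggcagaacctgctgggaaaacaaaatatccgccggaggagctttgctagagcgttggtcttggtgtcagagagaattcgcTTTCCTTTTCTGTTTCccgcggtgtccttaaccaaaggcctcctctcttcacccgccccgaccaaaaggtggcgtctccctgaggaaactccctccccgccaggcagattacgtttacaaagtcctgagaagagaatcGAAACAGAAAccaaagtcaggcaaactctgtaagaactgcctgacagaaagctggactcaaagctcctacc
TLR3: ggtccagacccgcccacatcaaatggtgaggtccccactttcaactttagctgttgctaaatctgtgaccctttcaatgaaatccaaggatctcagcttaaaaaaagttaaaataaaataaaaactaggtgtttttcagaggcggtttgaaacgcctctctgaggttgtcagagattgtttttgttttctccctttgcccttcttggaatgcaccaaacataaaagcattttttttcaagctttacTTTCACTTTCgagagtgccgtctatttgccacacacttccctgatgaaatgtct

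The IFIH1 window held 3 matches, of which 2 overlapped, and the TLR3 window held 1 match across the start site. The windows of DDX58, TBK1 and MAVS and both windows of IFI16 held no match to this pattern. The DDX58 window and the second IFI16 window hold GAAACGAAA, a GAAA repeat with shorter spacing that the search did not cover. Of all 35116 RefSeq windows of this length, 3.57% held the core. In the windows of DDX58 (chr9:32526145-32526444, minus strand) and IFI16 (chr1:158979447-158979746, plus strand, the second of its windows), capitals mark CpG dinucleotides.
DDX58: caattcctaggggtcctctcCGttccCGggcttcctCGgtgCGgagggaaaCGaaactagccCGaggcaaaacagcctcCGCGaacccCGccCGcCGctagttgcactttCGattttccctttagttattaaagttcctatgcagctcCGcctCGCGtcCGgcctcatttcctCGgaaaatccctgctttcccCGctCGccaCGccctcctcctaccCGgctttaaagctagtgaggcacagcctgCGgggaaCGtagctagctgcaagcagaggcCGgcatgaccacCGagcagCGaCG
IFI16: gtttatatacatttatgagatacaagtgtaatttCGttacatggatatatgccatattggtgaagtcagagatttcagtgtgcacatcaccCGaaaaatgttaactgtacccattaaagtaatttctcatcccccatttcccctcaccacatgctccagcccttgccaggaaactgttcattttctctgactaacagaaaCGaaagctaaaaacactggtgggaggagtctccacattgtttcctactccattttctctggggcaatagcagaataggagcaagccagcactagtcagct

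DDX58 had 27 CpG in its window and this IFI16 window had 3, against a median of 14 (quartiles 4 and 28) over all windows. TBK1 had 35, MAVS 34, IFIH1 12, TLR3 5 and the other IFI16 window 1. The TBK1 and MAVS windows were thus above the upper quartile, DDX58 just under it, and IFI16 at or below the lower one.

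In Mock cells the adaptors and effectors IRF3, MAVS and TBK1 were present in every line at similar levels, whereas the sensors and STING differed between lines by an order of magnitude or more. IRF3, which drives interferon genes once phosphorylated, ranged from 10.9 FPKM in H1299 to 29.5 FPKM in PC9 with a median of 13.7 FPKM. MAVS ranged from 7.55 FPKM in H1792 to 18.6 FPKM in H1299, median 13.9 FPKM. TBK1 was between 4.52 FPKM in H1299 and 10.1 FPKM in H1792, median 9.03 FPKM. The SD of the Mock log2(FPKM + 0.1) over the 6 lines was 0.43 for TBK1 and 0.47 for MAVS, and 13.4% and 16.6% of the 22814 genes with a mean of at least 0.1 FPKM had a smaller one. It was 2.76 for TMEM173 and 2.77 for IFI16, above 96.6% and 96.7% of genes. The other sensors were less extreme by this measure, where the median gene had an SD of 0.89. DHX58 and TLR3 were above 81.7% and 75.7% of genes, and IFIH1 and DDX58 above 67.2% and 62.1%. ZBP1 was above 42.7%, with few reads in most lines.

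TMEM173, the STING adaptor (chr5:138855118-138862520 in GRCh37), had Mock levels of 18.3 FPKM in CL1-5, 12.9 FPKM in H1299, 10.0 FPKM in H1792, 3.42 FPKM in PC9, 0.606 FPKM in A549 and 0.0440 FPKM in CL1-0. The CL1-0 value rests on 4 reads, and the highest line stood 416-fold above it. IFI16 (chr1:158969758-159024945) was at 33.7 FPKM in H1792 and 8.96 FPKM in CL1-5, and between 0.271 and 0.824 FPKM in H1299, PC9, A549 and CL1-0. The lines thus fell into a pair with IFI16 mRNA and 4 with little.

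Of the RNA sensors, DDX58 (chr9:32455300-32526206) was highest in CL1-5 at 10.3 FPKM, followed by H1792 at 3.08, H1299 at 2.14, PC9 at 2.01, CL1-0 at 1.83 and A549 at 0.943 FPKM. IFIH1 (chr2:163123584-163175194) was at 5.11 FPKM in H1792, 2.58 in CL1-5, 2.57 in H1299, 1.51 in PC9, 0.674 in CL1-0 and 0.453 FPKM in A549. A549 was the lowest line for both genes. DHX58 (chr17:40253422-40264732) was at 2.95 FPKM in H1792, 1.14 in CL1-5, 0.976 in PC9, 0.463 in CL1-0, 0.109 in H1299 and 0.0607 FPKM in A549, again the lowest. TLR3 (chr4:186990065-187009227) had another order, with 1.47 FPKM in PC9 and 1.24 FPKM in H1792 and 0.0713 to 0.198 FPKM in the other lines. ZBP1 (chr20:56178902-56195632), a sensor of Z-form nucleic acids that can trigger necroptosis, reached 0.294 FPKM in H1299, and had 3 reads or fewer in each of the other Mock libraries.

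By mean Mock FPKM over the 6 lines (± SD, n = 6) the order was IRF3 17.8 ± 8.25, MAVS 13.1 ± 3.94, TBK1 8.37 ± 2.08, TMEM173 7.56 ± 7.38, IFI16 7.40 ± 13.3, DDX58 3.39 ± 3.47, IFIH1 2.15 ± 1.71, DHX58 0.950 ± 1.07, TLR3 0.541 ± 0.639 and ZBP1 0.0550 ± 0.118. None of the 9 neighbouring pairs in this order passed after Benjamini-Hochberg adjustment (two-sided exact sign-flip permutation test on log2 values over 6 lines, lowest adjusted p = 0.281). A lone pair at the smallest possible p has this adjusted value. The test thus could not call 1 pair alone and does not show that neighbours were alike. IFIH1 was above DHX58 in 6 of 6 lines, by a mean of 1.40 on the log2 scale, with an unadjusted exact permutation p of 0.03125, the smallest that 6 lines can give. IFI16 was above DDX58 in 1 of 6 lines, H1792, and the mean log2 difference of this pair was -0.69. The Mock median was 0.593 FPKM for IFI16 and 2.08 FPKM for DDX58, so their order by mean rests on H1792.

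**Figure D1:**
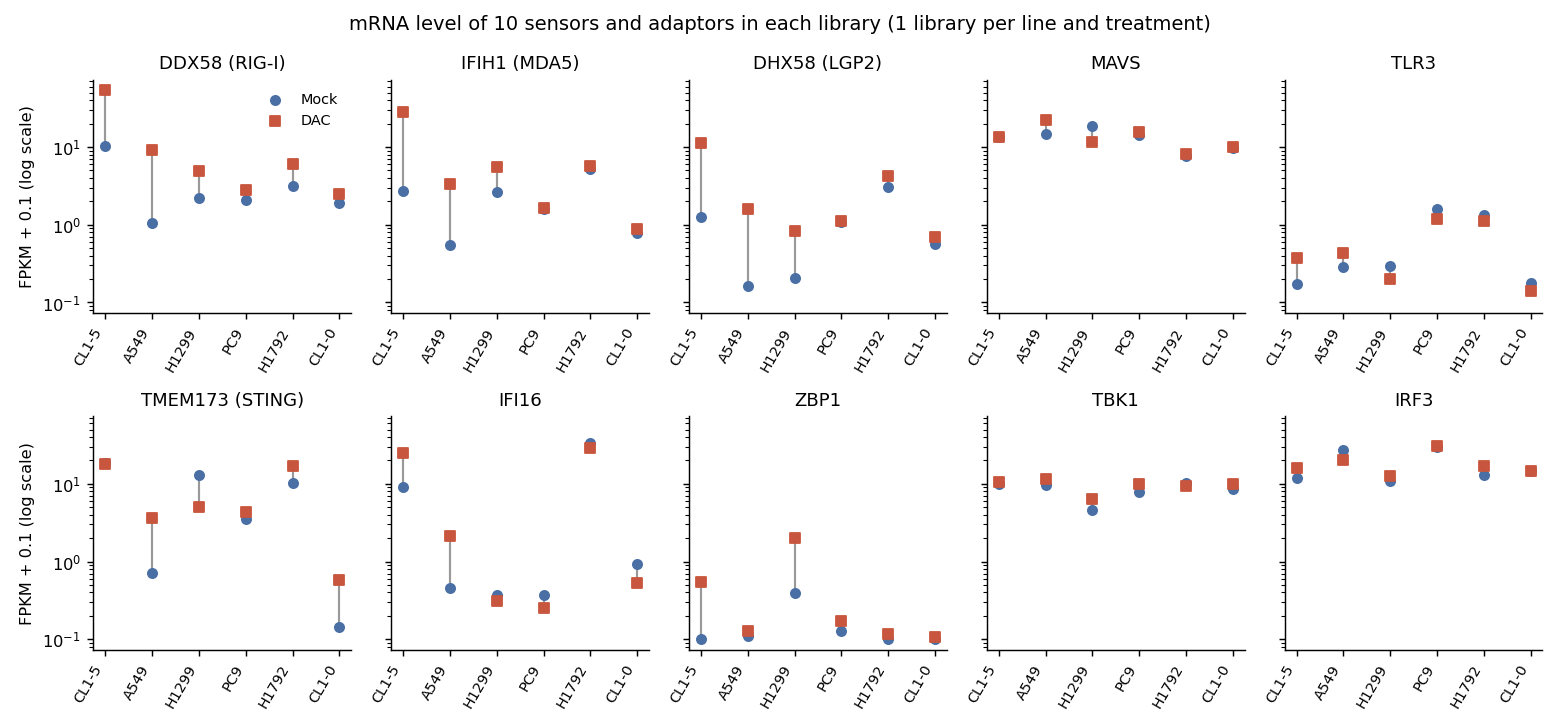
Level of each gene in the 12 mRNA-seq libraries, as FPKM + 0.1 on a log axis, with circles for Mock and squares for DAC joined within a line, and lines ordered by the size of their interferon response. The helicases separate after DAC in CL1-5, A549 and H1299, while MAVS, TBK1 and IRF3 stay within 4.52 to 30.8 FPKM in all libraries.

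The interferon response of each line was measured with 30 interferon-stimulated genes, none of them among the 10 genes described, as the median log2 difference between DAC and Mock on the log2(FPKM + 0.1) scale. It was 2.89 in CL1-5, 2.20 in A549, 0.70 in H1299, 0.32 in PC9, 0.18 in H1792 and 0.00 in CL1-0, where the median of all genes lay between 0.00 and 0.08 in every line. The number of the 30 genes at least 2-fold higher was 29 in CL1-5, 25 in A549, 13 in H1299, 5 in PC9, 5 in H1792 and 2 in CL1-0. Of all 22814 genes, 7.23%, 15.5%, 8.04%, 10.3%, 11% and 7.6% were, in the same order of lines. CL1-5 and A549 thus had a broad response, H1299 a partial one and the other lines little. The order within these groups depended on the scale. With a pseudocount of 0.01 A549 and CL1-5 were both at 2.98, and with a pseudocount of 1 A549 was at 1.18 and CL1-5 at 2.45. H1792 was at 0.02 and CL1-0 at 0.04 after rescaling to a common sum, and H1792 and PC9 were both at 0.10 with quantile normalization.

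Set beside these values, the Mock sensor levels did not follow the order of the response. CL1-5, with the largest response, ranked first of the 6 lines for DDX58 and TMEM173 and second for IFIH1, DHX58 and IFI16. A549, second on the scale with a pseudocount of 0.1, ranked last for DDX58, IFIH1 and DHX58 and next to last for TMEM173. H1792, with a median of 0.18, ranked first for IFIH1, DHX58 and IFI16, second for DDX58 and after CL1-5 and H1299 for TMEM173. CL1-0, with no response in median, ranked just above A549 for DDX58 and IFIH1 and last for TMEM173, with 1.83 FPKM of DDX58 against 0.943 FPKM in A549. TLR3 was lowest in CL1-5 and highest in PC9. No correlation is given, since the lines fell into groups by response.

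The Mock level of the same 30 genes also differed. Its median was 3.22 FPKM in CL1-5 and 2.77 FPKM in H1792, 0.856 FPKM in H1299, 0.606 in PC9, 0.335 in A549 and 0.190 FPKM in CL1-0. H1792 thus had high Mock levels of the sensors and of interferon-stimulated genes together. After DAC the median was 27.1 FPKM in CL1-5, 6.14 in A549, 3.35 in H1792, 2.20 in H1299, 1.08 in PC9 and 0.255 FPKM in CL1-0.

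**Figure D2:**
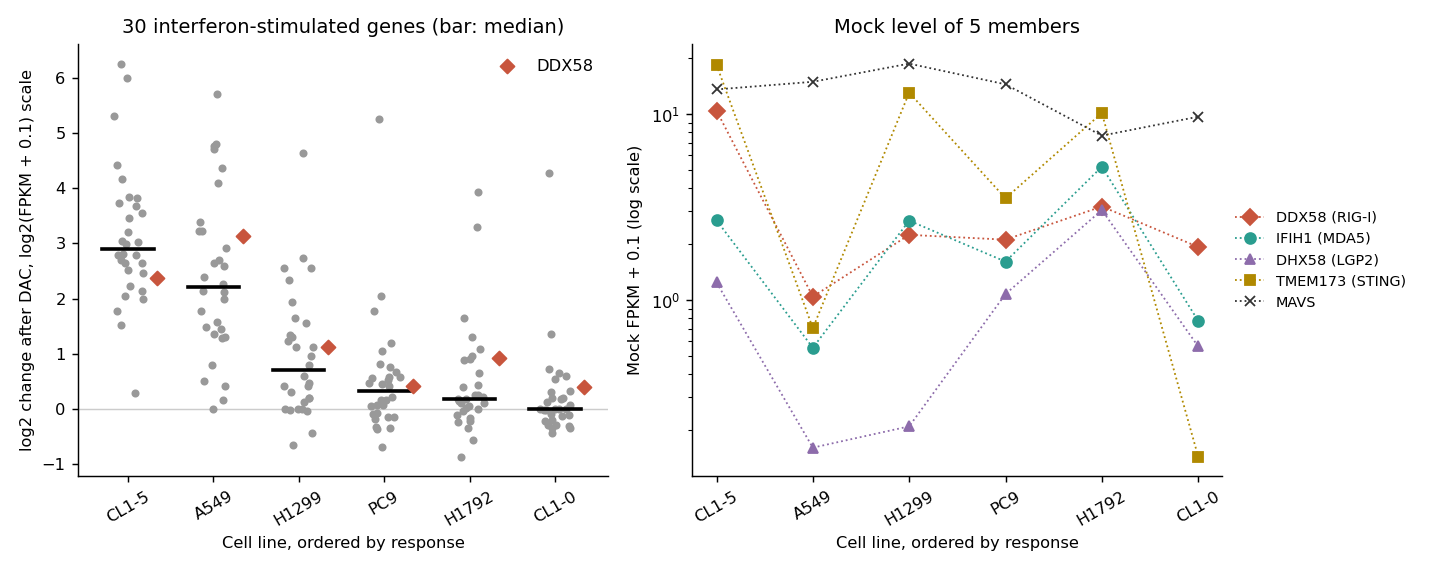
Left, log2 difference between DAC and Mock for each of 30 interferon-stimulated genes (grey points, bar at the median) and for DDX58 (diamonds) in 6 lines. Right, Mock FPKM + 0.1 of DDX58, IFIH1, DHX58, TMEM173 and MAVS on a log axis in the same line order, where A549 has a broad response, second on this scale, and the lowest level of the 3 helicases.

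None of the 10 genes passed the test across the 5 lines, in which 0.119% of 22603 genes were called higher and 0% lower (limma on log2(FPKM + 0.1), line as block, adjusted p under 0.05). By sign, all 10 estimates were above 0, with a median of 0.53 against 0.07 over all genes tested. Among them 5, DDX58, DHX58, IFIH1, ZBP1 and TBK1, had an unadjusted p under 0.05 with a higher level after DAC, where 8.07% of all genes did, and 0 had one with a lower level, where 4.4% did. ZBP1 passed the filter on low values through its DAC libraries, and 4 of 9 genes are left without it. Each of these 5 was higher in 5 of 5 lines, as were 6.76% of all genes. With voom on recovered reads 0 of the 10 were called as well, with a lowest adjusted p of 0.120 for DDX58. The count with an unadjusted p under 0.05 was 3 without A549 or without CL1-5, and 0 without the line as a block. Over all genes that p split 1825 higher and 994 lower, 2496 and 536 after rescaling to a common sum, and 1130 and 1668 after quantile normalization.

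DHX58 had the highest estimate, at 1.78 ± 0.53 (log2, SE over 5 lines; limma adjusted p = 0.290). In A549 5 reads in Mock compared with 147 after DAC, a level 24.9-fold higher (95% exact counting interval 10.4 to 77.8), and CL1-5 was 9.74-fold higher at 11.1 FPKM. H1299 was 6.67-fold higher (3.60 to 13.5), and H1792, a line with little response, 1.39-fold higher (1.19 to 1.62). In CL1-0 the ratio was 1.31 (0.880 to 1.97) and in PC9 1.06 (0.775 to 1.45), and both intervals included 1. Fold values by line are ratios of FPKM without a pseudocount, and their intervals cover counting error only.

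DDX58 was higher in 6 of 6 lines, with every counting interval above 1. Its level was 9.05 FPKM after DAC in A549 (9.60-fold higher, 7.71 to 12.1), 53.7 FPKM in CL1-5 (5.20-fold), 4.80 FPKM in H1299 (2.24-fold), 5.96 FPKM in H1792 (1.93-fold), 2.71 FPKM in PC9 (1.35-fold, 1.11 to 1.63) and 2.43 FPKM in CL1-0 (1.33-fold, 1.10 to 1.60). The Mock and DAC ranges overlapped across lines, since Mock CL1-5 at 10.3 FPKM exceeded the DAC level of every line except CL1-5 itself. Over the 5 lines the estimate was 1.49 ± 0.42 (SE, limma adjusted p = 0.282), and 1.39 ± 0.36 with H1792 added (limma adjusted p = 0.219). Among all genes, 4.55% were higher in 6 of 6 lines. In GENCODE v44, a later release than the authors counted on, exons of another gene on the same strand overlap 43.2% of DDX58 exon bases. The part of this overlap in the DDX58 values was not tested.

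IFIH1 was 10.8-fold higher in CL1-5 (9.65 to 12.2), at 28.0 FPKM, 7.12-fold higher in A549 (5.20 to 9.97), at 3.23 FPKM, and 2.13-fold higher in H1299 (1.86 to 2.43), at 5.47 FPKM. In CL1-0, PC9 and H1792 its ratio was 1.17, 1.04 and 1.10, and each interval included 1. Its estimate over 5 lines was 1.46 ± 0.50 (SE, limma adjusted p = 0.330). The helicases were thus higher where the 30 interferon-stimulated genes were. In the lines with little response DDX58 was also higher, by less, as was DHX58 in H1792. After DAC, A549 had more DDX58 mRNA than H1792, the reverse of their Mock order.

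ZBP1 was detected after DAC mainly in H1299, where 0.294 FPKM in Mock compared with 1.91 FPKM (6.49-fold higher, 4.78 to 9.21), and in CL1-5, where 0 reads in Mock compared with 58 (at least 21.6-fold higher, against a floor of 3 reads in the library). A549 had 4 reads and PC9 9 reads after DAC, and CL1-0 and H1792 had 1 and 2. Its estimate of 1.11 ± 0.44 (SE, limma adjusted p = 0.374) depends on the pseudocount. Without H1299 it was no longer above the filter.

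Of the adaptors and the kinase, TBK1 was higher by little in 5 of the 6 lines. The ratios were 0.921 in H1792, 1.06 in CL1-5, 1.18 in A549 and in CL1-0, 1.24 in PC9 and 1.40 in H1299, and the estimate over 5 lines was 0.27 ± 0.11 (SE, limma adjusted p = 0.380). MAVS was 1.48-fold higher in A549 (1.42 to 1.54) and at 0.615 of its Mock level in H1299 (0.590 to 0.641), with an estimate of 0.01 ± 0.18 that was negative when A549, CL1-0 or PC9 was left out. IRF3 stood at 0.738 of its Mock level in A549 (0.694 to 0.785), whereas its ratio was between 1.01 and 1.34 in the other lines. Its estimate of 0.05 ± 0.14 was -0.04 without CL1-5. In GENCODE v44, a later release than the one the authors counted on, exons of BCL2L12 on the opposite strand overlap 19.3% of its exon bases, and whether counting used strand is not given in the sources used here.

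TMEM173 differed in direction between lines. It was 10.8-fold higher in CL1-0 (3.97 to 40.9), at 0.474 FPKM after DAC from 4 reads in Mock, and 5.85-fold higher in A549 (4.34 to 8.03), at 3.54 FPKM. In H1299 it stood at 5.00 FPKM after DAC, 0.387 of its Mock level (0.349 to 0.428). CL1-5, with the highest Mock level, had a ratio of 0.971 and an interval of 0.909 to 1.04. PC9 was 1.22-fold higher (1.04 to 1.43) and H1792 1.67-fold higher (1.54 to 1.81). CL1-0 and A549, with the least STING mRNA in Mock, thus had the largest ratios, of which the Mock level is itself the denominator. Among the 4 other lines the ratios did not follow the Mock order. The DAC level in CL1-0 and A549 remained under that of the 4 other lines. The estimate over 5 lines was 0.65 ± 0.52 (SE, limma adjusted p = 0.600), and it was 0.22 without A549, 0.31 without CL1-0, 1.15 without H1299, 0.19 with a pseudocount of 1 and 0.03 with voom on recovered reads.

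IFI16 and TLR3 were higher in A549 and CL1-5 and lower or little different elsewhere. IFI16 was 5.56-fold higher in A549 (3.99 to 7.92), at 2.01 FPKM, and 2.76-fold higher in CL1-5 (2.59 to 2.95), at 24.7 FPKM, but at 0.511 of its Mock level in CL1-0 (0.369 to 0.703). Its estimate of 0.41 ± 0.47 was -0.04 without A549. TLR3 had ratios of 3.86 in CL1-5 (2.05 to 7.81) and 1.79 in A549, and of 0.737 in PC9 (0.598 to 0.907) and 0.513 in H1299, with an estimate of 0.09 ± 0.31 that was negative under quantile normalization, with voom on reads, and without A549 or CL1-5. Neither passed the test (limma adjusted p = 0.715 for IFI16 and 0.921 for TLR3).

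**Figure D3:**
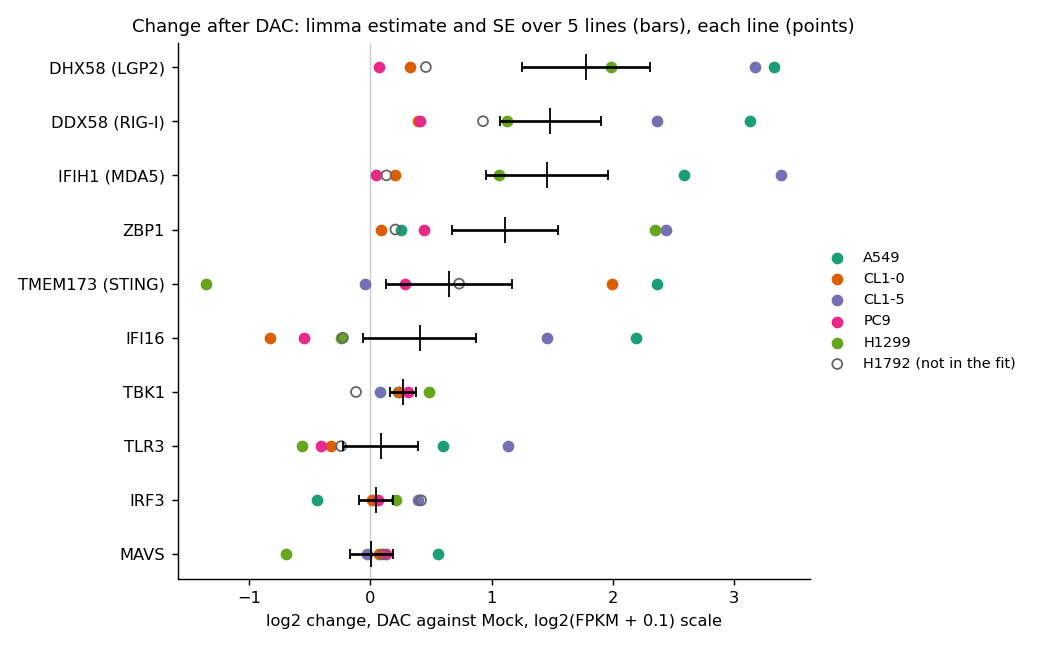
Log2 difference between DAC and Mock, on the log2(FPKM + 0.1) scale, with the limma estimate and its SE over 5 lines as a bar and each line as a point, open for H1792, which was not in the fit. Points of DDX58, DHX58, IFIH1 and ZBP1 all lie above 0, while those of TMEM173 run from -1.35 in H1299 to 2.37 in A549.

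Counted by line, A549 had 5 of the 10 genes at least 2-fold higher on the log2(FPKM + 0.1) scale (DDX58, IFIH1, DHX58, TMEM173 and IFI16), where 15.5% of 22814 genes were. CL1-5 had 6 (DDX58, IFIH1, DHX58, TLR3, IFI16 and ZBP1) against 7.23% of all genes, and H1299 had 4 (DDX58, IFIH1, DHX58 and ZBP1) against 8.04%, which was 1 with a pseudocount of 1 or with quantile normalization. In both lines ZBP1 is counted although it passed the filter through its DAC libraries. CL1-0 had 1, TMEM173, against 7.6%, and PC9 and H1792 had 0, against 10.3% and 11%. At least 2-fold lower there was TMEM173 in H1299, against 3.12% of all genes there, and no gene of the 10 in the other lines, where 6.65% (A549), 2.11% (CL1-0), 5.08% (CL1-5), 3.1% (PC9) and 6.1% (H1792) of all genes were. The median log2 difference of the 10 genes was 1.40 in A549, 1.29 in CL1-5, 0.35 in H1299, 0.17 in H1792, 0.15 in CL1-0 and 0.10 in PC9.

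The other genes of the pathway were described in the same fit. Of 13 further sensors 10 were tested, and 0 passed. Their median was 0.56, and 2 had an unadjusted p under 0.05, both higher. Among all genes 8.07% had one with a higher level and 4.4% with a lower. OAS2, which makes the 2-5A messenger that activates RNase L, had the highest estimate of this list at 2.25 ± 0.57 (SE, limma adjusted p = 0.239). In A549 it was at 0.00745 FPKM with Mock and 1.62 FPKM with DAC, and in CL1-5 at 5.34 and 76.6 FPKM. With voom on recovered reads OAS2 was called, and it was the 1 gene of this list and of the adaptors, regulators and interferon genes that was. The lowest was the helicase DDX41 at -0.15 ± 0.13 (SE, limma adjusted p = 0.628).

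Of 18 adaptors, kinases and factors tested, 0 passed, and the median was 0.08. An unadjusted p under 0.05 was found for 4 with a higher level and 1 with a lower, against 8.07% and 4.4% of all genes. IRF7, the interferon-induced relative of IRF3 that amplifies interferon production, was higher in 5 of 5 lines at 1.42 ± 0.37 (SE, limma adjusted p = 0.256), from 1.28 to 9.21 FPKM in A549 and from 6.68 to 32.7 FPKM in CL1-5. FADD, a death domain adaptor, was lower in 5 of 5 lines at -0.49 ± 0.16 (SE, limma adjusted p = 0.313), for example at 3.82 FPKM in Mock and 2.16 FPKM after DAC in PC9. IRF7 thus stood above and IRF3 near its Mock level in the same libraries.

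Among 15 regulators and brakes 0 passed, and the median was 0.04. For 1 with a higher level and 1 with a lower the unadjusted p was under 0.05, near the 8.07% and 4.4% of all genes. NLRC5, a transactivator of class I antigen presentation genes, was highest at 0.68 ± 0.33 (limma adjusted p = 0.438), and NLRX1, a mitochondrial relative of the NOD receptors, was lowest at -0.57 ± 0.18 (limma adjusted p = 0.302). SAMHD1, a dNTP hydrolase, had the largest difference of this list in a single line, from 9.34 to 45.3 FPKM in CL1-5. In the other lines its log2 difference lay between -0.13 and 0.67.

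The interferon genes themselves were near the limit of detection. Of 8 genes 4 were tested and 0 passed. For 1 the unadjusted p was under 0.05 with a higher level, as for 8.07% of all genes. IFNL1, a type III interferon, had the highest estimate at 1.72 ± 0.50 (SE, limma adjusted p = 0.286), with at most 44 reads in any library, and was at 2.11 FPKM after DAC in CL1-5 and listed at 0 in both PC9 libraries. IFNL3 was at 3.15 FPKM after DAC in CL1-5, from at most 59 reads, and IFNL2 and IFNL3 are near-identical copies whose reads may have been split. IFNE was the lowest at -0.02 ± 0.25 (SE, limma adjusted p = 0.974). IFNB1, the type I interferon downstream of IRF3, had at most 2 reads in any library and was not tested.

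Of the 30 interferon-stimulated genes, BST2, which tethers budding virions at the cell surface, rose across lines (4.57 ± 0.44, SE, limma adjusted p = 0.0255, higher in 5 of 5 lines), and the 29 others did not pass. An unadjusted p under 0.05 was found for 20, all higher, where 8.07% of all genes had one with a higher level, and the median was 1.31. Among these 20, MX2 and XAF1 passed the filter on low values through their DAC libraries. BST2 was not called with a pseudocount of 1, without the filter, with quantile normalization, without the trend or the block, or when A549, CL1-0, CL1-5 or PC9 was left out, and voom called it with 5 others of the list. BST2 was higher also in CL1-0, from 0.265 to 6.94 FPKM, the line where the median of the list was 0.00. CXCL10, a chemokine, had the largest difference in a single line, from 0 to 7.53 FPKM in CL1-5. Its estimate was 1.89 ± 0.88 (SE, limma adjusted p = 0.427). It had 0 reads in every Mock library and passed the filter through its DAC libraries.

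Likeness over the 12 libraries, as Pearson's r of log2(FPKM + 0.1) across 22814 genes, is a description, since libraries of a line share that line. The 3 genes most like DDX58 were OAS2 (r = 0.949), IRF7 (r = 0.943) and OASL (r = 0.935). IFIH1 was most like IFITM1 (r = 0.946), IFI44 (r = 0.895) and HELZ2 (r = 0.885), and DHX58 most like PARP10 (r = 0.912), MX2 (r = 0.902) and EPSTI1 (r = 0.879). Of the 9 genes nearest to the 3 helicases, 5 were on the interferon-stimulated list, and OAS2 and IRF7 were on the lists of other sensors and of factors. DDX58 and IFIH1 had r = 0.856 with each other, DDX58 and DHX58 r = 0.802, and DDX58 and MAVS r = 0.07.

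IFI16 was nearest to UBE2L6 (r = 0.937), CDH13 (r = 0.936) and TNFSF18 (r = 0.936), and TMEM173 to SAMD4A (r = 0.960), ATG14 (r = 0.949) and ANPEP (r = 0.940). For TLR3 the nearest was TUSC3 (r = 0.962), and for ZBP1 they were TLX3 (r = 0.928), AP1B1P1 (r = 0.923) and IRGM (r = 0.921), on few reads. MAVS was nearest to RALGAPA2 (r = 0.917), CLTC (r = 0.881) and NXPE3 (r = 0.879). TBK1 was nearest to HSPA12A (r = 0.953), PAM16 (r = 0.952) and ANKRD61 (r = 0.938), and IRF3 to INAVA (r = 0.957), JMJD4 (r = 0.950) and GOLT1A (r = 0.950). Of the 21 genes nearest to these 7, 1 was on the list of 30, UBE2L6.

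Accessibility at the same promoters was read from broad peaks within 3000 bp of any transcript start of a gene in GENCODE v44, shorter transcripts included. For DHX58 the strongest such peak was annotated by the authors as 3′ UTR in 6 of 8 libraries and as exon in 1, and for IRF3 as exon in 3 of 8, so that these are not peaks at the 5′ end of the gene. The Mock libraries labelled CL1-5 and PC9 did not match the mRNA of their labels. Of 117 genes at 5 FPKM or more in PC9 and under 0.05 FPKM in CL1-5, 94.0% had a promoter peak in the library labelled CL1-5 and 57.3% in that labelled PC9, and of 79 genes with the opposite mRNA pattern 53.2% and 79.7% did. These libraries are therefore named by label only and are not set beside the mRNA of either line. The peak lists of both were also deposited under names that carry the other line's name. Percentile differences of DDX58, IFIH1 and TBK1 are also given from A549 and H1299 alone.

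In A549 promoter peaks were present for 8 of the 10 genes with Mock and for 9 with DAC, where 90.2% and 92% of 14955 protein-coding genes had one, and for 7 and 9 in H1299, where 87.6% and 89.6% had one. The library labelled CL1-5 had 10 and 9 (background 91.8% and 92.1%) and that labelled PC9 10 and 10 (90.8% and 92.4%). TLR3 had a peak after DAC and none in Mock in A549, as did 2.86% of genes, and TLR3 and ZBP1 did in H1299, as did 3.29%. The TLR3 peaks lay at chr4:186989207-186989571 in A549, 494 bp from the nearest start site, and at chr4:186989234-186989498 in H1299, 567 bp away. They covered none of the printed TLR3 window, which held the interferon response core. TLR3 mRNA was 0.335 FPKM after DAC in A549 and 0.101 FPKM in H1299.

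The printed DDX58 and IFIH1 windows, and that of TBK1, lay wholly inside a peak in 8 of 8 libraries. The MAVS window was covered in 7 and for 190 of its 300 bases in Mock H1299. IFI16 had a peak over its start sites in the libraries labelled PC9 and in no other, where the peak over the printed window covered 156 of its bases in Mock and 154 after DAC, with a fold enrichment of 6.01 and 4.52. The strongest IFI16 peak after DAC, at 5.91, lay over another start site (chr1:158985372-158985687). In A549, where IFI16 mRNA was 5.56-fold higher after DAC, and in H1299 no IFI16 promoter peak was called with either treatment. In the library labelled CL1-5 a Mock peak 1533 bp from a start site (chr1:159000365-159000761) was absent after DAC, as for 1.56% of genes. These gains and losses depended on the peak definition. Those of TLR3 were found in 5 of 5 alternatives in A549 and in H1299, that of ZBP1 in H1299 and that of IFI16 in the library labelled CL1-5 in 2 of 5 each. With 3000 bp windows no other gene of the 10 had a peak with Mock alone (background 1.14% in A549, 1.3% in H1299 and 0.889% in the libraries labelled PC9), and none had one with DAC alone in the libraries labelled CL1-5 and PC9 (1.89% and 2.51%).

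Peak strength was compared as the percentile of a gene's strongest promoter peak among the 14955 genes of its library, since fold enrichment differs in scale between libraries. Genes without a peak tie at the lowest rank, so no mean difference is given for a gene that lacked a peak in any library. DDX58 was higher after DAC in 4 of 4 lines. Its percentile was 36.0 with Mock and 76.0 with DAC for A549, and for H1299 it was 65.5 and 80.4. The libraries labelled CL1-5 gave 27.0 and 53.3, and those labelled PC9 gave 46.2 and 73.0. Its mean difference was 27.0 ± 10.2 percentile points (SD, n = 4, two-sided exact sign-flip permutation test, p = 0.125, which 4 lines cannot go below), and 27.4 over A549 and H1299. Of all genes, those without a peak in some library included, 7.59% were higher in 4 of 4. In A549 the DDX58 peak had a fold enrichment of 5.64 with Mock and 8.17 with DAC, and in H1299 of 7.08 and 7.36.

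IFIH1 differed in both directions, with percentiles of 56.5 (Mock) and 36.2 (DAC) for A549 and of 43.3 (Mock) and 66.5 (DAC) for H1299, with a mean difference of 6.39 ± 19.9 percentile points (SD, n = 4, exact permutation p = 0.5), and of 1.45 over A549 and H1299. In A549 its mRNA was 7.12-fold higher while its promoter percentile was lower. By percentile TBK1 was higher in 4 of 4 lines (exact permutation p = 0.125). The mean was 6.47 ± 8.08 points (SD, n = 4), from Mock percentiles between 59.5 and 94.5. The fold enrichment of its peak was nonetheless lower after DAC in each pair. It was 10.8 with Mock and 10.5 with DAC in A549, and 8.61 and 7.88 in H1299. In the libraries labelled CL1-5 it was 6.02 and 5.92, and in those labelled PC9 9.59 and 9.27. The TBK1 difference was 18.4 points in the libraries labelled CL1-5 and 0.742 to 3.90 in the others, and its mean over A549 and H1299 was 1.77. The mean differences of MAVS and TMEM173 were -1.59 and -0.52 points, with lines on both sides of 0. None is given for TLR3, IFI16 and ZBP1, which lacked a peak in some libraries. The strongest ZBP1 peak was annotated as intron in 1 of 7 libraries and in the others lay 1860 to 2041 bp from the nearest start site. None is given for DHX58 and IRF3, whose strongest peak was not at the 5′ promoter in every library.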

How the data were processed

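The authors trimmed mRNA-seq reads (TruSeq stranded libraries), mapped them to hg19 (GRCh37) by RSEM with bowtie2, obtained a count for each gene and deposited FPKM scaled with DESeq2 1.24.0 (version per the submitters' processing notes). The same table holds a mean normalized signal, deposited by the authors, and their own fold changes and p-values, which were not used. For Omni-ATAC-seq the authors called broad peaks per library with MACS2 2.2.5 and annotated them with ChIPseeker 1.20.0, and the deposited lists give a fold enrichment ratio and −log10 q-values per peak. The peak lists hold no read totals, and the study's methods state only an average of raw ATAC reads over samples.

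Whole reads were recovered from the FPKM and the mean signal (100% of values within 0.01 of a whole read). Log2(FPKM + 0.1) of genes with a mean of at least 0.1 FPKM entered limma 3.58.1 (R 4.3.3), blocked by line, with the trended empirical Bayes step, and p-values were Benjamini-Hochberg adjusted over 22603 genes. Within a line Mock and DAC deviations from the treatment means correlated at r = 0.700 to 0.903, against at most 0.164 between lines, and both libraries of a pair come from the same cell line. Counting intervals are exact (Clopper-Pearson, 95%), with a floor of 3 reads, and cover counting error only. Permutation tests, peak overlaps and figures used Python 3.11.15, scipy 1.17.1 and matplotlib 3.10.9. Fits were tested on simulated data.

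The members and gene lists were chosen with earlier results of these data known. Named besides the 10 genes are, of each list, genes past the threshold, otherwise the highest and lowest estimate and the largest difference in any line, and the 3 genes most like each member (for TLR3 the nearest alone, the rest not being reported here). IKBKE, TREX1 and PECAM1 are not used here. The alternatives were other pseudocounts (1, 0.01), filters, scalings, no trend, no block, voom, H1792 included, each line left out, and other peak windows, limits and assignments. Leaving out the ATAC libraries labelled CL1-5 and PC9 was chosen after seeing the data.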

Additional observations from a re-analysis of the deposited data

Results flagged for a closer look

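Of 30 sets of 6 lines examined (Mock level, DAC level and difference of each of the 10 genes), 3 held a line far from the others by Dixon's ratio, all 3 H1299, where chance flags about 1 in 20. These sets share lines and genes and are not independent. ZBP1 in Mock was -1.34 on the log2(FPKM + 0.1) scale in H1299, against -2.98 in the next line. The other lines had 3 ZBP1 reads or fewer in Mock, so their values lay near the floor set by the pseudocount. TBK1 was 2.21 in Mock H1299, against 2.98 in the next line, and 2.69 after DAC, against 3.23. H1299 had the lowest TBK1 and the highest ZBP1 with either treatment.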

How the results depend on the processing

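None of the 10 genes was called in any of the 15 alternatives to the fit. With an unadjusted p under 0.05 the number higher was 5, and 0 with no replicate block, and 3 to 4 when a line was left out. The median of all genes was 0.07, and 0.17 after rescaling to a common sum and -0.04 after quantile normalization. Estimates changed sign for TLR3 (-0.23 with quantile normalization, -0.021 with voom, -0.04 without A549, -0.17 without CL1-5, up to 0.25 without H1299), MAVS (-0.13 without A549, -0.0063 without CL1-0, -0.022 without PC9, up to 0.19 without H1299), IFI16 (-0.039 without A549, up to 0.72 without CL1-0 among the lines left out, and 0.88 with voom) and IRF3 (-0.038 without CL1-5). DHX58 was 0.91 with a pseudocount of 1, and TMEM173 ran from 0.027 with voom to 1.15 without H1299. The 1 interferon-stimulated gene called became 0 with a pseudocount of 1, no filter, quantile normalization, no trend and no replicate block, 6 with voom, and 0 to 1 when a line was left out, while 1 other sensor was called with voom. At least 2-fold higher genes numbered 0 in CL1-0 and 1 in H1299 with a pseudocount of 1, 1 in PC9 and 1 in H1792 with a pseudocount of 0.01, and 1 in H1299 with quantile normalization, which also gave 1 lower gene in CL1-0. The cause was not tested. The DDX58 percentile difference was 22.3 to 27.4 in every peak alternative. Among peak gains, that of ZBP1 in H1299 was absent at a q-value under 0.01, with equal numbers of peaks and with the authors' own assignment of peaks to genes, TMEM173 gained a peak in A549 at a q-value under 0.01, and DHX58 in A549 and H1299 with the authors' assignment. The IFI16 loss was absent with windows of 1000 bp, at a q-value under 0.01 and with the authors' assignment. With 1 library per line and treatment, depth limits TLR3, ZBP1 and the interferon genes.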
